A study of Caenorhabditis elegans with 18 samples.

Results

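Whole worms of the Caenorhabditis elegans strain CB3474, a carrier of the ben-1 allele e1880, were given mebendazole (MBZ) or its solvent, DMSO. The comparison takes the 3 MBZ libraries and the 3 DMSO libraries of 18 in the series and covers all 17484 genes with enough reads to test, of 20395 in the count table. Both groups carried the ben-1 allele, so no group had an intact ben-1 locus, and both were grown in liquid with E. coli OP50 at 20 °C. The MBZ worms received 1.13 mM MBZ dissolved in DMSO for 4 h, and the DMSO worms received solvent alone. Libraries of worms given albendazole (ABZ), fenbendazole (FBZ), oxfendazole (OxBZ) or thiabendazole (TBZ) at the same dose and time enter where MBZ is compared with another drug. The strain is a single mutant line, the RNA is from whole animals, and fewer cells of a type and less RNA per cell cannot be told apart.

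Benzimidazole anthelmintics bind beta-tubulin and block the growth of microtubules, and in C. elegans loss of ben-1, which encodes a beta-tubulin, makes worms resistant to them. Worms meet foreign chemicals mainly in the intestine, where cytochrome P450 enzymes oxidise them, transferases attach sugars or glutathione to them and ABC transporters pump them across membranes. Many of these genes belong to large families with members side by side in the genome, and nuclear hormone receptors control some of them.

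The MBZ libraries held 59021903 to 67277284 counted reads and the DMSO libraries 61119707 to 63879951. Levels below are CPM, the counts of a gene per 1000000 counts of its library after scaling of the library totals, and differences are log2 fold changes of MBZ over DMSO with an approximate standard error (SE). Vitellogenin genes, which encode yolk proteins made by adult hermaphrodites, held 2.50% to 7.55% of MBZ counts and 3.39% to 7.82% of DMSO counts, while the source label speaks of mixed larvae and the growth protocol of adults. Among the MBZ and DMSO libraries, the one labelled DMSO replicate 2 stood apart. Its log CPM correlated with the other 5 libraries at 0.919 to 0.95, where those correlated with each other at 0.971 to 0.992, and sperm genes held 0.566% of its counts against 0.107% to 0.116% in MBZ and 0.0922% and 0.162% in the other DMSO libraries. Several results that rest on this library are therefore also given without it.

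The mutated gene itself was checked first. ben-1 had 51.2, 49.8 and 55.2 CPM in MBZ libraries, against 56.2, 66.2 and 50.8 CPM in DMSO libraries. The groups overlapped and the difference was -0.15 ± 0.10 (adjusted p = 0.368, edgeR quasi-likelihood test). The allele is present in both groups, so the level does not check which worms received the drug.

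In the main edgeR test few genes were called under MBZ, rises outnumbered falls, and many of the largest rises were in genes of chemical detoxification. At an adjusted p of 0.05, 218 genes rose, which is 1.25% of genes tested, and 41 fell, which is 0.235%, together 259 or 1.48%. Of the genes that rose, 147 rose at least 2-fold, 69 at least 4-fold and 23 at least 16-fold, whereas 7 fell at least 2-fold. The median change was 1.44 among the rises and -0.54 among the falls. The rises included weakly expressed genes, with 45 at a DMSO mean under 1 CPM and a median DMSO level of 7.15 CPM, against 122 CPM for the falls and 9.26 CPM for all genes tested. Every called gene had all 3 MBZ libraries beyond all 3 DMSO libraries, an order that 13.7% of genes tested showed upward and 7.93% downward. Without DMSO replicate 2 the calls numbered 128 rises and 28 falls. Of the 218 rises 102, and of the 41 falls 5, were called without each of the 6 libraries in turn. With only the MBZ and DMSO libraries in the edgeR fit 40 genes rose and 1 fell, and DESeq2 on all libraries called 484 rises and 470 falls. Without DMSO replicate 1 the calls numbered 446 rises and 804 falls, and without MBZ replicate 1 225 rises and 759 falls. At an unadjusted p of 0.05 in edgeR, 1647 of the genes tested were higher and 1316 lower. The number of calls and the excess of rises thus depended on the test and on the libraries.

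**Figure D1:**
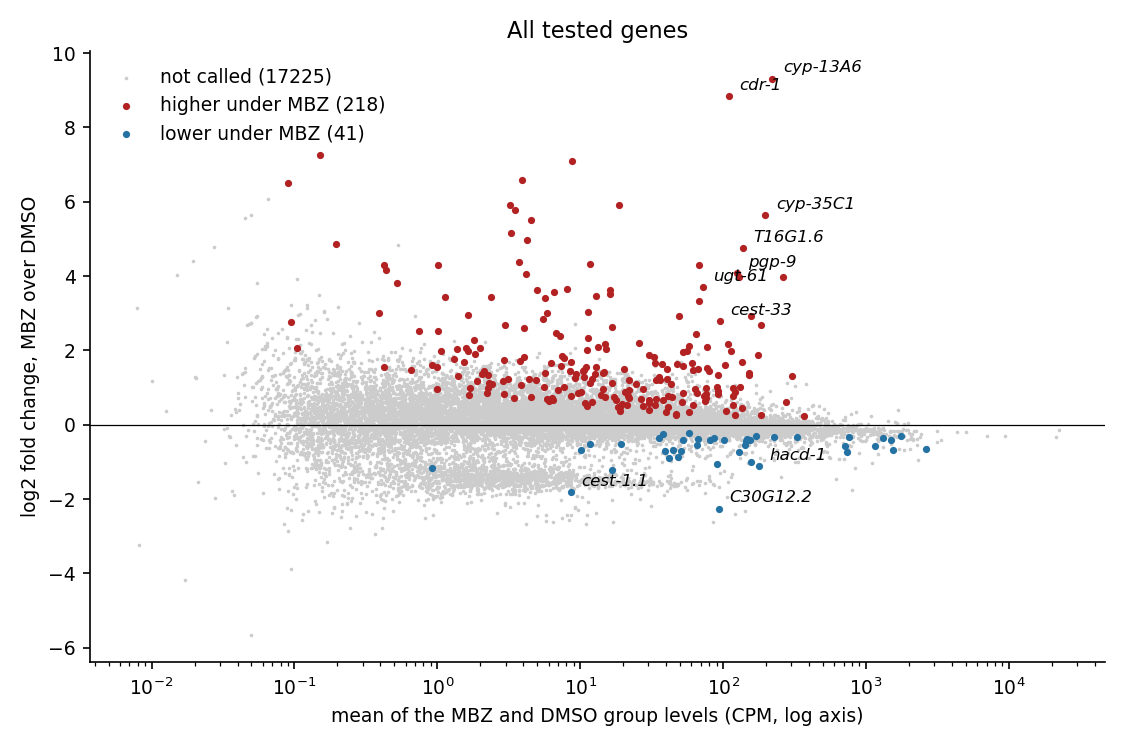
Log2 fold change of MBZ over DMSO (y axis) against the mean of both group levels in CPM (x axis, log scale) for all tested genes, with called genes in colour. The 218 rises reach 9.31 for cyp-13A6 at the top, while the 41 falls reach no lower than -2.26 for C30G12.2.

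The 11 lists of detoxification genes together held 64 of the rises among 318 tested members, or 20.1%, and 4 of the falls. Outside these lists 154 of 17166 genes rose, or 0.897%. The lists were chosen with earlier results of these data known, so these shares describe them and are no independent support. Among the 74 tested cytochrome P450 genes, 26 rose, or 35.1%, and 0 fell. At an unadjusted p of 0.05 in edgeR, 0 of the cyp-35, 2 of the cyp-13 and cyp-14 and 1 of the other P450 genes were lower, and DESeq2 called 0, 2 and 0.

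The largest rise was in cyp-13A6, a cytochrome P450 gene. It had 471, 374 and 479 CPM in MBZ libraries, against 0.614, 0.628 and 0.827 CPM in DMSO libraries. The gene was thus among the weak ones in every solvent library and among the strongly expressed ones in every MBZ library, a difference of 9.31 ± 0.61 (adjusted p = 5.68e-07, edgeR). Its neighbour cyp-13A7 rose to 8.34, 6.43 and 9.92 CPM in MBZ libraries, against 0.232, 0.323 and 0.227 CPM in DMSO libraries (4.97 ± 0.62). In the list of cyp-13 and cyp-14 genes, 5 of 18 rose and 0 fell, with a list median of 0.84 against 0.0089 for all genes tested. The other risers were cyp-13A4 (4.07 ± 0.74; not called without DMSO replicate 3), cyp-14A4 (3.44 ± 0.47) and cyp-13A3 (2.52 ± 0.37). The cyp-13A genes are similar in sequence, and the handling of reads that match several copies is not given, so the split of reads among them is uncertain, as it is in the other clustered families below.

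The cyp-35 family, whose members are known in C. elegans for induction by foreign chemicals, had the highest share of called members. Of its 10 tested genes, 8 rose and 0 fell, with a median of 4.57. cyp-35C1 had 391, 277 and 494 CPM in MBZ libraries, against 7.47, 10.4 and 5.35 CPM in DMSO libraries (5.64 ± 0.39; adjusted p = 1.05e-06, edgeR). cyp-35A5 had 36.4, 21.8 and 52.6 CPM in MBZ libraries, against 0.797, 0.412 and 0.616 CPM in DMSO libraries (5.91 ± 0.35). cyp-35A1 had 8.30, 5.97 and 8.84 CPM in MBZ libraries, against 0.0830, 0.108 and 0.0486 CPM in DMSO libraries (6.57 ± 0.39). None of these groups came close to overlapping. cyp-35A4 (5.50 ± 0.77), cyp-35A3 (5.16 ± 0.78), cyp-35A2 (3.98 ± 0.31), cyp-35B2 (2.94 ± 0.67) and cyp-35D1 (2.06 ± 0.25) completed the rises, of which cyp-35B2 was not called without replicate 2 or 3 of either group. In this family cyp-35A2 reached the second highest level of the family, at a mean of 242 CPM under MBZ and 15.3 CPM under DMSO.

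Among the other cytochrome P450 genes 13 of 46 rose and 0 fell, with a median of 0.64, or 0.54 without DMSO replicate 2. The rises belonged mostly to the cyp-33C and cyp-34A groups. Of them cyp-25A3, cyp-33C1 and cyp-34A5 were not called without DMSO replicate 2. cyp-34A9 had 530, 419 and 533 CPM in MBZ libraries, against 35.9, 15.2 and 43.7 CPM in DMSO libraries (3.97 ± 0.37; adjusted p = 2.63e-05, edgeR). This was a gene with a clear level under solvent that still rose in every drug library. cyp-33C7 rose to 91.1, 65.8 and 103.5 CPM in MBZ libraries, against 10.01, 9.23 and 14.9 CPM in DMSO libraries (2.93 ± 0.31). cyp-34A7 (3.45 ± 0.49) and cyp-33C8 (2.45 ± 0.37) were further examples, and cyp-29A2, at 1.44 ± 0.23, reached a mean of 116 CPM under MBZ and 42.7 CPM under DMSO.

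Genes of conjugation enzymes rose as well. Of 66 tested UDP-glucuronosyltransferase genes (ugt), whose products attach sugars to small molecules, 23 rose and 0 fell. The median was 0.68, or 0.47 without DMSO replicate 2, where ugt-36, ugt-45, ugt-54 and ugt-66 were no longer called. In the list 3 were lower at an unadjusted p of 0.05 in edgeR, and DESeq2 called 1 fall. ugt-61 had 148, 118 and 138 CPM in MBZ libraries, against 9.58, 11.9 and 9.31 CPM in DMSO libraries. The libraries within each group lay close together, and the difference of 3.71 ± 0.12 had the lowest adjusted p of the named genes (1.42e-10, edgeR). ugt-16 had 149, 97.2 and 143 CPM in MBZ libraries, against 4.52, 12.7 and 2.81 CPM in DMSO libraries (4.29 ± 0.41). The highest level of a ugt gene that rose was that of ugt-62, at a mean of 318 CPM under MBZ and 49.2 CPM under DMSO (2.69 ± 0.48). ugt-67 rose by a similar factor as ugt-16 (4.15 ± 0.54) but stayed below 1 CPM in every library.

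Among 47 glutathione S-transferase genes, 4 rose and 0 fell, with a median of 0.18, and 4 were lower at an unadjusted p of 0.05, while DESeq2 called 2 falls. gst-5 had 185, 201 and 144 CPM in MBZ libraries, against 47.3, 47.1 and 22.2 CPM in DMSO libraries (2.18 ± 0.26; adjusted p = 0.000313, edgeR). The others were gst-33 (3.00 ± 0.64), gsto-2 (2.03 ± 0.47) and gst-21 (1.37 ± 0.17). Without DMSO replicate 2, 2 of the list were called, as without MBZ replicate 2 or DMSO replicate 3, and gst-33 and gsto-2 were not called without any of these 3 libraries.

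Hydrolases and transporters contributed single strong rises. Of 32 carboxylesterase genes (cest), which encode ester-cleaving enzymes, 4 rose and 1 fell. The list median was 0.35, or 0.14 without DMSO replicate 2. cest-33 had 171, 138 and 186 CPM in MBZ libraries, against 21.2, 25.8 and 24.5 CPM in DMSO libraries (2.79 ± 0.12; adjusted p = 2.87e-09, edgeR). cest-35.2 was at a lower level, with 24.5, 16.5 and 25.6 CPM in MBZ libraries, against 1.43, 0.771 and 1.09 CPM in DMSO libraries (4.34 ± 0.22). Of 13 P-glycoproteins, which are ABC transporters, 1 rose. This was pgp-9, with 323, 211 and 179 CPM in MBZ libraries, against 11.8, 25.02 and 5.40 CPM in DMSO libraries (4.08 ± 0.52; adjusted p = 0.000584, edgeR). The DMSO values of pgp-9 varied widely but all lay below the lowest MBZ value. Among 39 other ABC transporters haf-7 rose (1.21 ± 0.18). fmo-5, a flavin-containing monooxygenase, rose by 1.67 ± 0.32, a call lost without DMSO replicate 2, DMSO replicate 3 or MBZ replicate 3.

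**Figure D2:**
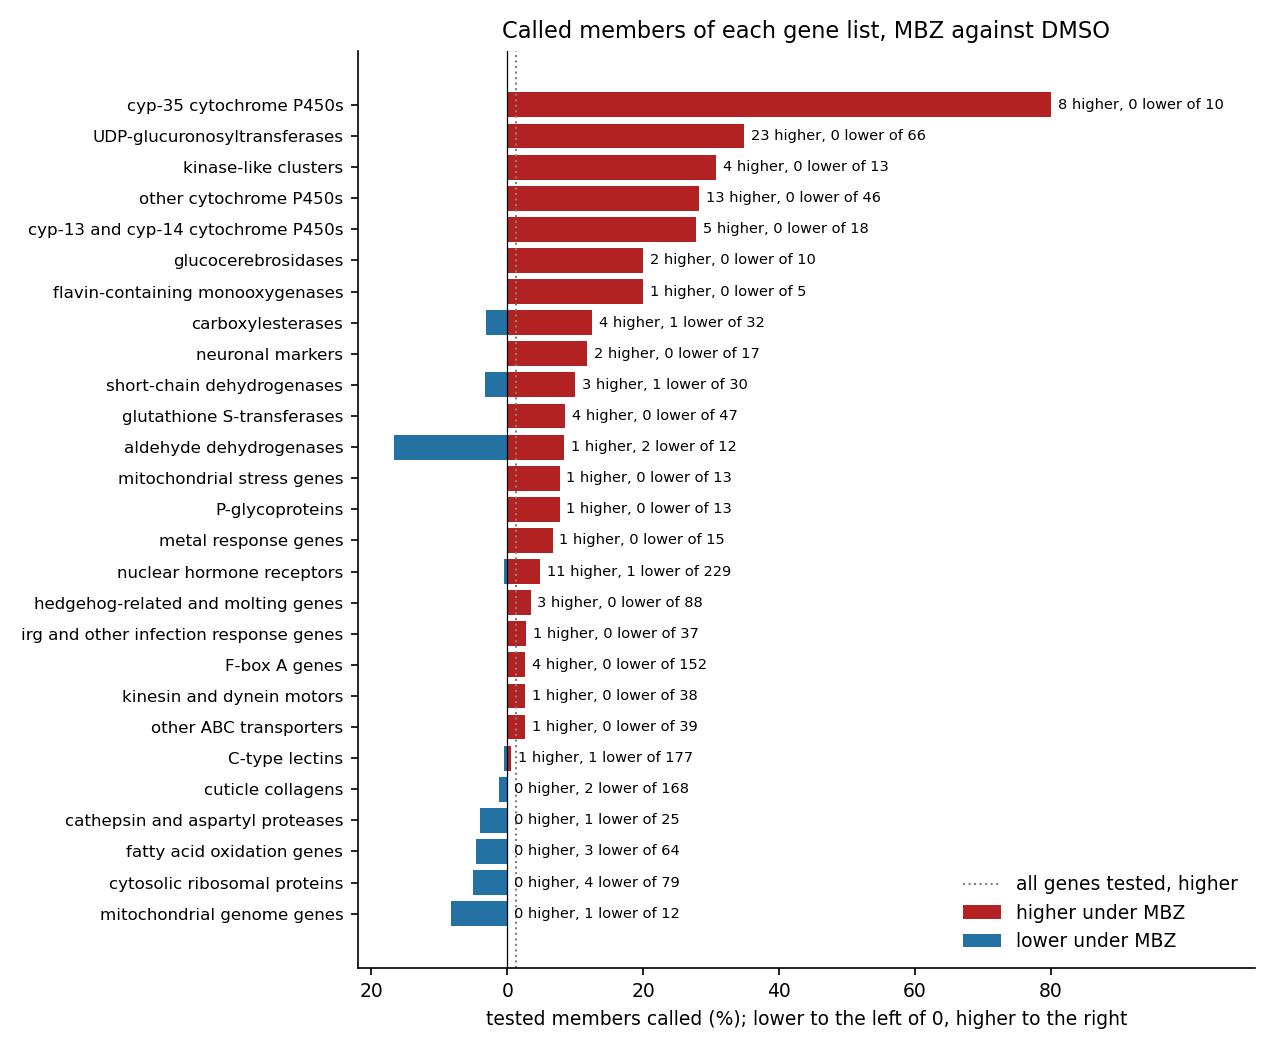
Share of tested members called (x axis, %) for each gene list with at least 1 call, rises to the right of 0 and falls to the left, with the counts printed beside each bar and the share of rises among all genes as a dotted line. The cyp-35 genes lead with 8 of 10. Lists with falls alone include fatty acid oxidation genes, cuticle collagens and cytosolic ribosomal proteins.

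Short-chain dehydrogenases showed 3 rises and 1 fall among 30 members, with dhs-14 at 1.53 ± 0.23, and the list median was -0.02. The other rises, dhs-16 and dhs-23, and the fall, dhs-30, were not called without DMSO replicate 2 or 3. Aldehyde dehydrogenases showed 1 rise, alh-5, not called without DMSO replicate 2 or MBZ replicate 3, and 2 falls, alh-8 and alh-11, among 12. Neither fall was called without MBZ replicate 2 or DMSO replicate 3, nor alh-11 without MBZ replicate 3.

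The second largest rise was in cdr-1, a gene named for its response to cadmium. It had 245, 196 and 219 CPM in MBZ libraries, against 0.415, 0.646 and 0.389 CPM in DMSO libraries (8.84 ± 0.35; adjusted p = 2.87e-09, edgeR). It was the member edgeR called of the 15 tested metal response genes, whose median was 0.51, while 6 were higher at an unadjusted p of 0.05 and DESeq2 called 5 rises. Of ferritins and metal transporters, 0 of 5 were called by edgeR, with 1 lower at an unadjusted p of 0.05 and 1 fall by DESeq2.

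A cluster of 4 genes on chromosome V that encode kinase-like proteins rose as a whole. T16G1.6 had 304, 208 and 283 CPM in MBZ libraries, against 9.80, 10.2 and 9.66 CPM in DMSO libraries (4.74 ± 0.25; adjusted p = 5.98e-08, edgeR). Its neighbours T16G1.4 (3.33 ± 0.44), T16G1.7 (1.99 ± 0.24) and T16G1.5 (1.45 ± 0.28) also rose, the last not without DMSO replicate 2 or MBZ replicate 3. These were the 4 members edgeR called of a list of 13 genes from several such clusters, where DESeq2 called 5 rises. More generally 56 of 215 protein-coding genes that rose lay beside another gene that rose, in 24 runs, of which 6 held 3 genes or more. The share for other genes was not computed, and many runs join members of the same family, whose shared reads are uncertain. One run of 4 joined cyp-35A3, K09D9.1, cyp-35A4 and C49G7.7. Chromosome V held 107 of the rises among 3706 genes tested there, or 2.89%, against 1.25% of all genes tested. The other nuclear chromosomes ranged from 0.337% on I to 1.22% on X.

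Among 229 tested nuclear hormone receptors, the family of ligand-binding transcription factors that is expanded in C. elegans, 11 rose and 1 fell, with a median of 0.27. The rises were mostly of weak genes. nhr-178 had 3.40, 2.59 and 2.64 CPM in MBZ libraries, against 0.697, 1.04 and 0.568 CPM in DMSO libraries (1.90 ± 0.32). nhr-3, at a mean of 58.4 CPM under MBZ and 27.5 CPM under DMSO, rose by 1.09 ± 0.21, not called without DMSO replicate 2 or MBZ replicate 3. nhr-214 had 14, 4 and 16 reads in MBZ libraries and none in any DMSO library, which makes it at least 10.7-fold higher against a floor of 3 counts over the DMSO group, a call lost without DMSO replicate 2 or 3 or MBZ replicate 3. nhr-55 fell by 0.72 ± 0.16, not called without replicate 2 or 3 of either group. In place of 12 calls the list held 4 without DMSO replicate 2 or 3, 3 without MBZ replicate 3 and 7 without MBZ replicate 2.

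Further large rises lay outside the detoxification families. K12D9.1 had 18.5, 15.1 and 18.3 CPM in MBZ libraries, against 0.199, 0.179 and 0 CPM in DMSO libraries (7.09 ± 0.94). clec-206, a C-type lectin gene, had 8.46, 5.32 and 5.13 CPM in MBZ libraries, against 0.149, 0.161 and 0 CPM in DMSO libraries (5.92 ± 0.57). Both had no read in DMSO replicate 3 and few in the others, so these fitted changes rest on small counts. F56A4.5 (WBGene00018913) rose by 5.77 ± 0.71, and a second identifier with the same symbol, WBGene00021567, had no DMSO read and was at least 17.8-fold higher, so the split between them is uncertain. Among 177 C-type lectins edgeR called clec-206 higher and clec-169 lower (-1.17 ± 0.27), and clec-169 was not called without DMSO replicate 2 or 3 or any 1 of the MBZ libraries. DESeq2 called 2 rises and 4 falls in this list.

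**Figure D3:**
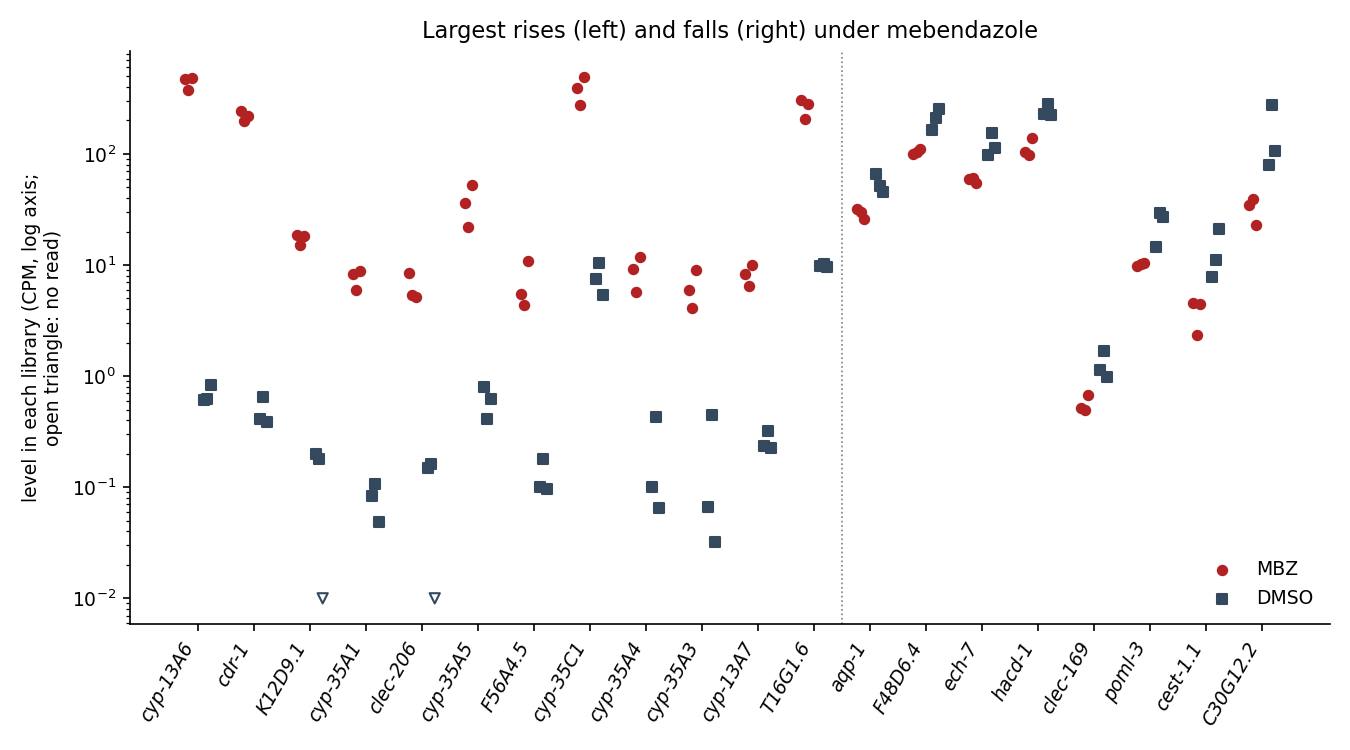
Level in each library (y axis, CPM, log scale) of the 12 genes with the largest rises and the 8 with the largest falls among called genes with a mean of at least 1 CPM in either group, with MBZ as circles and DMSO as squares. MBZ and DMSO libraries overlap in none of these genes, and the gap is widest for cyp-13A6 and cdr-1.

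Lists of general stress showed few calls. The share called among all genes tested was 1.48%, so few calls were to be looked for in lists of this size. In the edgeR test 0 of 22 heat shock genes, 0 of 28 endoplasmic reticulum stress genes, 0 of 26 antioxidant and SKN-1 genes and 0 of 35 pals genes, a family known for its response to microsporidia and virus, were called. At an unadjusted p of 0.05 the counts were 1 higher and 4 lower heat shock genes, 2 and 2 endoplasmic reticulum genes, 2 and 2 antioxidant genes and 1 higher pals gene. DESeq2 called 2 lower heat shock genes, 1 higher endoplasmic reticulum gene, 1 higher and 2 lower antioxidant genes and 1 higher pals gene. Among 13 mitochondrial stress genes atfs-1, the transcription factor of the mitochondrial unfolded protein response, had 123.9, 112 and 116.4 CPM in MBZ libraries, against 90.6, 92.8 and 87.8 CPM in DMSO libraries. The difference was small but the groups were tight and apart (0.38 ± 0.05; adjusted p = 0.000858, edgeR). Among 37 infection response genes irg-2 rose, with 20.0, 15.8 and 24.8 CPM in MBZ libraries, against 2.29, 2.26 and 2.87 CPM in DMSO libraries (3.03 ± 0.38).

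The tubulins, the family whose beta members the drug class binds, gave 0 calls among 16 in edgeR, with a median of -0.03. At an unadjusted p of 0.05, 2 were higher and 1 lower, and DESeq2 called 2 rises. The beta-tubulin tbb-2 had 1341, 1178 and 1279 CPM in MBZ libraries, against 1386, 1362 and 1300 CPM in DMSO libraries (-0.09 ± 0.06; adjusted p = 0.363, edgeR). The alpha-tubulin tba-1 had 709, 662 and 655 CPM in MBZ libraries, against 727, 650 and 677 CPM in DMSO libraries. tbb-6 had the largest difference, with 18.7, 15.6 and 10.1 CPM in MBZ libraries, against 2.49, 5.88 and 2.29 CPM in DMSO libraries. Its groups did not overlap, but the difference of 2.06 ± 0.50 missed the threshold (adjusted p = 0.0643, edgeR). Of 38 kinesin and dynein motors klp-4, a kinesin-like gene, rose by 0.28 ± 0.06, a call lost without DMSO replicate 2 and without 4 of the other 5 libraries in turn.

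The gene unc-18, whose product binds syntaxin in synaptic vesicle release, had 122, 114 and 125 CPM in MBZ libraries, against 63.8, 57.5 and 57.1 CPM in DMSO libraries (1.02 ± 0.06; adjusted p = 1.55e-07, edgeR). It is in none of the lists. Of the 17 neuronal markers unc-64, the syntaxin gene (0.33 ± 0.08), and unc-13, a vesicle priming gene (0.25 ± 0.06), were called by edgeR, and 8 of the 17 lay above DMSO in every library, while DESeq2 called 3 rises. Over all genes tested edgeR called 1.25% higher, and 13.7% lay above DMSO in every library. The unc-64 call was lost without each of the 6 libraries in turn and the unc-13 call without each but DMSO replicate 1, and both were lost with either of the other scalings tried in edgeR.

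The patched-related receptor genes ptr-22, ptr-17 and ptc-3 rose among 88 hedgehog-related and molting genes, whose median was 0.70 and 0.54 without DMSO replicate 2. ptr-22 had 27.5, 24.4 and 37.9 CPM in MBZ libraries, against 3.16, 1.11 and 2.92 CPM in DMSO libraries (3.64 ± 0.34; adjusted p = 2.63e-05, edgeR). ptr-17 rose by 1.61 ± 0.32 and ptc-3 by 0.77 ± 0.14, calls that were lost without DMSO replicate 2 and, for ptr-17, without DMSO replicate 3 or MBZ replicate 3. gba-2, which belongs to the glucocerebrosidase genes, the enzymes that cleave glucosylceramide, rose by 3.58 ± 0.48 with 12.8, 7.80 and 15.8 CPM in MBZ libraries, against 1.395, 0.932 and 0.713 CPM in DMSO libraries. Its neighbour gba-1 rose by 1.00 ± 0.18, a call lost without DMSO replicate 2 or MBZ replicate 3.

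The falls were smaller, and 3 of them were in genes of fatty acid oxidation. hacd-1, a hydroxyacyl-CoA dehydrogenase gene, had 103.9, 97.4 and 139 CPM in MBZ libraries, against 229, 282 and 223 CPM in DMSO libraries (-1.11 ± 0.19; adjusted p = 0.00736, edgeR). ech-7, an enoyl-CoA hydratase gene, had 59.4, 61.2 and 55.0002 CPM in MBZ libraries, against 97.4, 155 and 113 CPM in DMSO libraries (-1.05 ± 0.23). acdh-1, an acyl-CoA dehydrogenase gene of propionate breakdown, had 1079, 1082 and 1381 CPM in MBZ libraries, against 1659, 1951 and 2061 CPM in DMSO libraries (-0.68 ± 0.15; adjusted p = 0.0329, edgeR). These were the 3 members edgeR called of 64 fatty acid oxidation genes, whose median was -0.04. Lower members at an unadjusted p of 0.05 numbered 9 and higher ones 5, and DESeq2 called 7 falls. The hacd-1 call remained without each library in turn, and the ech-7 and acdh-1 calls were lost without DMSO replicate 2, DMSO replicate 3 or MBZ replicate 2.

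The largest fall, C30G12.2, depended on the same library. It had 34.8, 39.0 and 22.9 CPM in MBZ libraries, against 79.5, 278 and 105 CPM in DMSO libraries (-2.26 ± 0.47), and was not called without DMSO replicate 2 or without MBZ replicate 2 or 3. The carboxylesterase gene cest-1.1 had 4.55, 2.35 and 4.46 CPM in MBZ libraries, against 7.84, 11.1 and 21.03 CPM in DMSO libraries (-1.82 ± 0.35), a call lost without MBZ replicate 2 or DMSO replicate 3. F48D6.4 had 99.5, 103 and 110 CPM in MBZ libraries, against 165, 211 and 252 CPM in DMSO libraries (-1.01 ± 0.14; adjusted p = 0.00101, edgeR). This gene, hacd-1, exc-15, mua-6 and the mitochondrial gene described next were the 5 falls called without each of the 6 libraries in turn. aqp-1, an aquaporin gene, fell by 0.89 ± 0.16, not called without MBZ replicate 3, and poml-3 by 1.22 ± 0.22, not called without DMSO replicate 2.

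Genes of protein synthesis and of the mitochondrial genome gave a few small falls. Of 79 cytosolic ribosomal protein genes 4 fell and 0 rose, the list median was -0.17 and 71 of the 79 lay below DMSO in every library. Over all genes tested 0.235% were called lower and 7.93% lay below DMSO in every library. rpl-5 had 1418, 1053 and 1363 CPM in MBZ libraries, against 1627, 1796 and 1645 CPM in DMSO libraries (-0.40 ± 0.09; adjusted p = 0.0491, edgeR), a call lost without replicate 2 or 3 of either group. At an unadjusted p of 0.05, 50 were lower and 0 higher, and DESeq2 called 26 falls and 0 rises. The called members of the list numbered 48 without DMSO replicate 1, 23 without MBZ replicate 1, and 0 without MBZ replicate 2 or DMSO replicate 3. The mitochondrial gene WBGene00010964 had 2320, 1682 and 2139 CPM in MBZ libraries, against 3384, 2828 and 3368 CPM in DMSO libraries (-0.64 ± 0.11; adjusted p = 0.00811, edgeR). It was the only one edgeR called of 12 genes of the mitochondrial genome. Proteasome subunits gave 0 calls of 33 in the edgeR test, with 19 below DMSO in every library and a median of -0.13. Of these 11 were lower at an unadjusted p of 0.05, and DESeq2 called 4 falls.

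Cuticle collagens and sperm genes showed how far a single solvent library moved a list. Of 168 collagens 2 fell and 0 rose, col-155 (-0.87 ± 0.20) and col-153 (-0.67 ± 0.16), and the list median was -0.49, or 0.03 without DMSO replicate 2. Neither was called without DMSO replicate 2 or 3 or MBZ replicate 2 or 3, and without DMSO replicate 1 the collagen calls numbered 23. Of the collagens 45 were lower and 5 higher at an unadjusted p of 0.05, and DESeq2 called 21 falls and 0 rises. Sperm genes gave 0 calls of 90 with a median of -1.51, or -0.28 without DMSO replicate 2. Vitellogenins (0 of 7), germline genes (0 of 36), oocyte and eggshell genes (0 of 27) and early embryonic genes (0 of 60) gave no calls in edgeR. Of all 17484 genes tested, 1316 were lower and 1647 higher at an unadjusted p of 0.05 in edgeR. At the same cut the lower genes numbered 13 for sperm, 1 for vitellogenins, 14 for germline, 7 for oocyte and eggshell and 7 for early embryonic genes. The falls DESeq2 called numbered 0, 0, 4, 4 and 1 in the same lists.

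The shares of counts held by 12 gene lists were compared with an exact two-sided permutation test, which cannot go below 0.1 with 3 libraries against 3. Mitochondrial genome genes held 0.721% ± 0.069 of MBZ counts and 0.901% ± 0.132 of DMSO counts (SD, n = 3 each), with no overlap (exact p = 0.1). Neuronal markers held 0.0741% ± 0.0096 of MBZ counts and 0.0598% ± 0.0073 of DMSO counts, also without overlap (exact p = 0.1). Intestinal markers held 0.779% ± 0.032 of MBZ counts and 0.856% ± 0.045 of DMSO counts, and germline genes 0.754% ± 0.022 of MBZ counts and 0.797% ± 0.027 of DMSO counts, each with an exact p of 0.1. After adjustment over the 12 lists no p was below 0.3. The part of these shares in the called rises and falls was not tested.

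**Figure D4:**
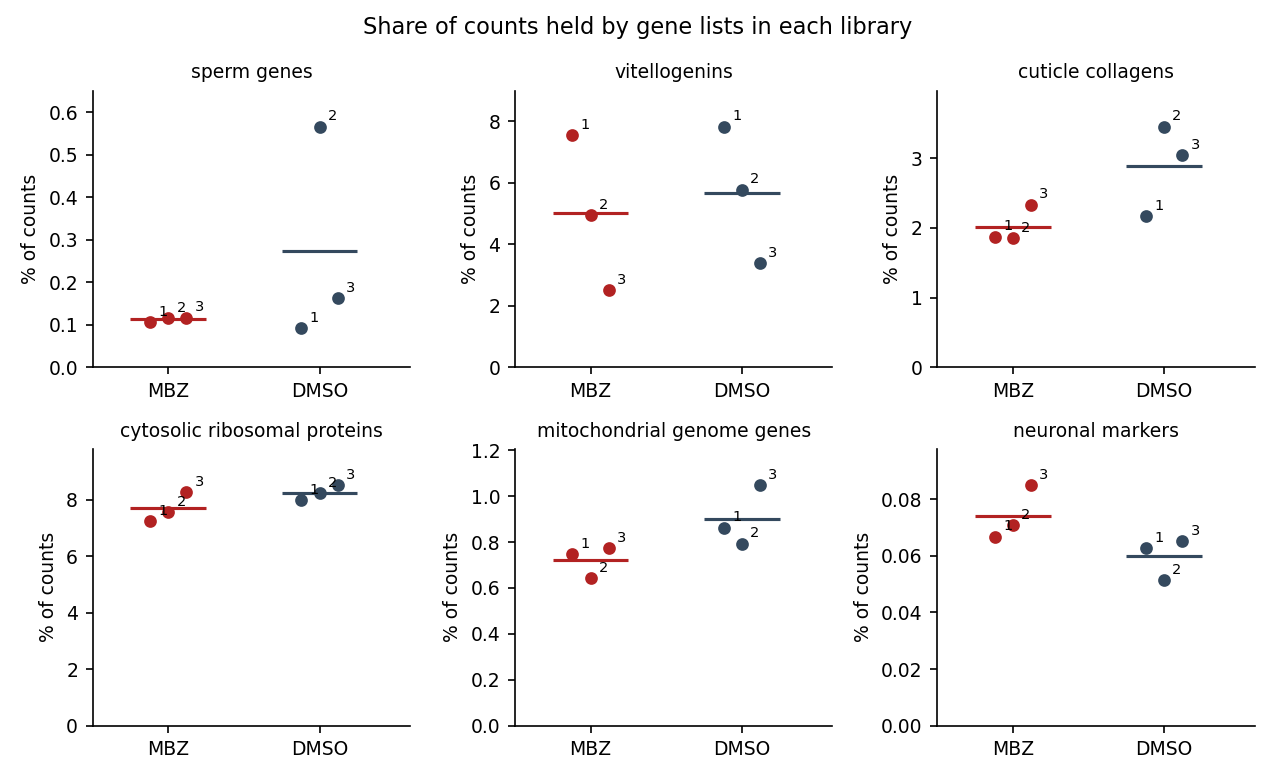
Share of counts (y axis, %) held by 6 gene lists in each MBZ (left) and DMSO (right) library, with replicate numbers beside the points and the group mean as a line. DMSO replicate 2 lies at 0.566% for sperm genes, above every other library, while the ranges of both groups for vitellogenins overlap.

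At the same dose and time MBZ was compared directly with the other 4 drugs, which are its structural relatives. MBZ, ABZ, FBZ and OxBZ share a benzimidazole ring with a methyl carbamate and differ in the side group on the benzene ring, which is benzoyl in MBZ, propylthio in ABZ, phenylthio in FBZ and phenylsulfinyl in OxBZ. TBZ has no carbamate and carries a thiazole ring in its place. P-values were adjusted over all genes and the 4 pairs together. MBZ and ABZ differed in 294 genes, 1.68% of those tested, with 145 higher (0.829%) and 149 lower (0.852%) under MBZ. Sperm genes held 0.550% of counts in ABZ replicate 2 and 0.0731% and 0.130% in the other ABZ libraries, and their part in the difference was not tested. From TBZ MBZ differed in 1068 genes (6.11%; 625 or 3.57% higher and 443 or 2.53% lower), from FBZ in 4022 (23%; 2203 or 12.6% higher and 1819 or 10.4% lower) and from OxBZ in 6113 (35%; 2744 or 15.7% higher and 3369 or 19.3% lower). Sperm genes held 0.0242% to 0.0278% of counts in FBZ libraries, and 66 of the 90 tested were higher under MBZ than under FBZ. Intestinal markers held 0.395% to 0.405% of counts in OxBZ libraries and 0.750% to 0.813% in MBZ libraries. Vitellogenins held 3.76% to 4.09% of counts in FBZ libraries and 4.50% to 4.65% in OxBZ libraries, against 2.50% to 7.55% in MBZ libraries. The part of these shares in the differences from FBZ and OxBZ was not tested. No label says whether the drug groups shared cultures, so drug and preparation cannot be told apart in these counts. The median difference over all genes was 0.14 against OxBZ, 0.02 against FBZ, -0.0008 against ABZ and -0.0038 against TBZ.

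Genes beyond DMSO and beyond each of the other 4 drugs, in 5 separate contrasts, numbered 8, each of them higher. The 8 were cyp-13A6, ugt-61, T16G1.7, C02D5.4, T16G1.5, unc-18, nhr-112 and ZC328.3. In all 8 every MBZ library lay above the other 15 libraries, but they were chosen on these same libraries, so this order is no added support. cyp-13A6 averaged 441 ± 58 CPM under MBZ, 3.63 ± 1.16 under ABZ, 27.5 ± 0.7 under FBZ, 116 ± 13 under OxBZ, 3.88 ± 3.03 under TBZ and 0.690 ± 0.119 under DMSO (SD, n = 3 each). The difference was 6.92 (95% interval 5.77 to 8.08) against ABZ and 1.93 (1.02 to 2.84) against OxBZ, the nearest drug. ugt-61 averaged 134 ± 15 CPM under MBZ, 8.98 ± 0.56 under ABZ, 13.1 ± 0.2 under FBZ, 24.8 ± 2.4 under OxBZ, 9.63 ± 0.42 under TBZ and 10.3 ± 1.4 under DMSO. Its difference was 3.90 (3.65 to 4.15) against ABZ and 2.44 (2.20 to 2.67) against OxBZ (adjusted p = 1.06e-08, edgeR).

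The remaining 6 had smaller changes over DMSO, from 0.75 to 1.99. C02D5.4 averaged 208 ± 13 CPM under MBZ, 78.3 ± 9.7 under ABZ, 53.0 ± 2.8 under FBZ, 149 ± 9 under OxBZ, 80.8 ± 2.1 under TBZ and 64.3 ± 8.6 under DMSO. unc-18 averaged 121 ± 5 CPM under MBZ, 64.6 ± 3.5 under ABZ, 106 ± 3 under FBZ, 95.7 ± 5.7 under OxBZ, 66.1 ± 2.2 under TBZ and 59.5 ± 3.8 under DMSO. Its margin over FBZ was 0.19 (0.06 to 0.31; adjusted p = 0.0482, edgeR), the narrowest named here. nhr-112 averaged 51.8 ± 2.4 CPM under MBZ, 29.5 ± 2.5 under ABZ, 9.89 ± 0.60 under FBZ, 9.64 ± 0.35 under OxBZ, 13.5 ± 2.0 under TBZ and 30.2 ± 4.3 under DMSO.

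Other strong MBZ rises did not pass as higher than every other drug. cyp-35C1 averaged 387 CPM under MBZ, 1128 under ABZ, 335 under FBZ, 364 under OxBZ, 75.8 under TBZ and 7.75 under DMSO. The difference of MBZ was -1.54 (-2.24 to -0.84) against ABZ and 2.35 (1.63 to 3.07) against TBZ, whereas it did not pass against FBZ (0.21; -0.48 to 0.89) or OxBZ (0.09; -0.60 to 0.77). cdr-1 averaged 220 CPM under MBZ, 9.56 under ABZ, 19.1 under FBZ, 146 under OxBZ, 668 under TBZ and 0.483 under DMSO. It was thus higher than under ABZ (4.53; 3.94 to 5.11) and FBZ, lower than under TBZ (-1.60; -2.11 to -1.09) and not called against OxBZ (0.60; 0.09 to 1.0995; adjusted p = 0.106, edgeR).

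The largest gap below another drug was in cyp-35D1, which averaged 2.57 CPM under MBZ, 47.3 under ABZ, 0.985 under FBZ, 10.8 under OxBZ, 1218 under TBZ and 0.606 under DMSO. MBZ differed from TBZ by -8.89 (-9.48 to -8.31) and from ABZ by -4.21 (-4.69 to -3.73). ugt-33 averaged 1.71 CPM under MBZ and 180 CPM under OxBZ, a difference of -6.72 (-7.55 to -5.89), and dhs-23 averaged 9.58 CPM under MBZ and 392 CPM under OxBZ (-5.36; -6.77 to -3.94). gst-5 averaged 177 CPM under MBZ and 183 CPM under ABZ, with an interval of -0.58 to 0.48 for the difference, while OxBZ, at 818 CPM, was higher (-2.21; -2.76 to -1.66).

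T16G1.6 averaged 265 CPM under MBZ, 97.6 under ABZ, 212 under FBZ, 340 under OxBZ, 8.81 under TBZ and 9.89 under DMSO, so that MBZ was higher than ABZ by 1.44 (0.98 to 1.90) and than TBZ by 4.91 (4.37 to 5.45). pgp-9 averaged 238 CPM under MBZ, 32.6 under ABZ, 67.3 under FBZ, 595 under OxBZ, 10.98 under TBZ and 14.1 under DMSO. Against OxBZ its difference of -1.33 (-2.32 to -0.33) did not pass (adjusted p = 0.0691, edgeR).

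By family, the cyp-35 genes of MBZ worms were lower than under ABZ for 5 of 10 members and higher for 0, while the 18 cyp-13 and cyp-14 genes were higher for 5 and lower for 0. Against TBZ 21 of the 46 other cytochrome P450 genes were higher under MBZ and 3 lower. Over all genes tested 0.829% were higher and 0.852% lower than under ABZ, and 3.57% were higher and 2.53% lower than under TBZ. Of the 218 genes that MBZ raised over DMSO, 43 were also higher than under ABZ, 28 lower and 147 not called. Against FBZ these numbers were 43, 62 and 113, against OxBZ 45, 80 and 93, and against TBZ 125, 20 and 73. These genes were chosen on the same MBZ libraries, so the counts describe them and tilt towards MBZ.

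**Figure D5:**
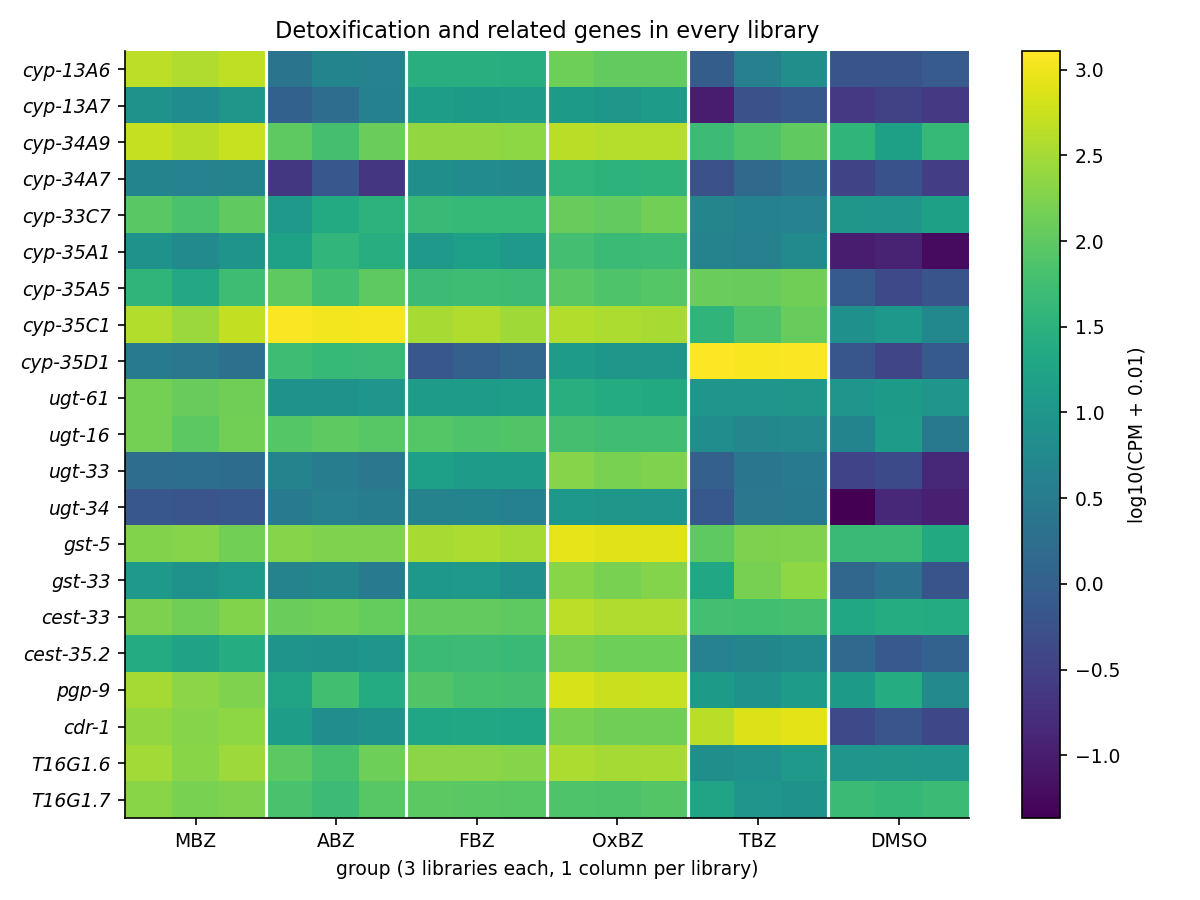
Level of 21 genes of detoxification and related families in every library (colour, log10 of CPM + 0.01; 1 column per library, groups MBZ, ABZ, FBZ, OxBZ, TBZ and DMSO). cyp-13A6 and ugt-61 are brightest in the MBZ columns, cyp-35D1 in the TBZ columns and ugt-33 in the OxBZ columns.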

How the data were processed

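Total RNA of whole worms was sequenced as paired reads of 100 nt, per the labels' protocols. The values are raw read counts per gene deposited by the authors, made with Subread 1.4.6 and featureCounts per the submitters' processing notes. Genome build, annotation and strand setting were not given in the sources used here, so genes that overlap or lie antisense to each other are uncertain. Symbols and chromosomes came from Ensembl release 115.

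In R 4.3.3, edgeR 4.0.16 kept genes by filterByExpr (minimum count 10), scaled by TMM and fitted 1 robust quasi-likelihood model to all 18 libraries (12 residual degrees of freedom, biological coefficient of variation 0.303). P-values were adjusted by Benjamini-Hochberg. Each SE is approximate, the size of the log2 change divided by the root of the F statistic, and gives the 95% intervals. A gene without DMSO reads was given a floor of 3 counts, which covers counting error only. The labels name biological replicates but no separate cultures per drug, so p-values measure the spread between libraries. In the main fit this was the spread within groups over all 18 libraries, not that of the MBZ and DMSO libraries alone.

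Named genes were the tubulins, the 12 largest rises and 8 largest falls, up to 3 called members of each list and the extremes of each drug pair; other genes, such as ugt-62, cyp-35A2 or nhr-3, were picked after their values were seen. The members and lists were chosen with earlier results of these data known. The tests were tried on simulated counts, and DESeq2 1.42.0, other scalings, filters, thresholds, a replicate block and leaving out each library were alternatives.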

Additional observations from a re-analysis of the deposited data

How the results depend on the processing

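No called gene changed direction under any setting tried. The counts of 218 rises and 41 falls became 40 and 1 with only the MBZ and DMSO libraries in the fit, where the 40 were all among the 218 and the 1 fall was not among the 41. DESeq2 called 484 and 470, upper quartile scaling 109 falls, a 2-fold minimum 7 falls, and an adjusted p of 0.01 left 113 and 8. Without each library in turn the rises ranged from 128 to 446 and the falls from 8 to 804, the highest counts being without DMSO replicate 1. Without MBZ replicate 1 there were 759 falls and 225 rises.

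Same-numbered MBZ and DMSO libraries deviated with correlations of -0.11, 0.04 and 0.49, and no label ties a number to a culture, so they were treated as unpaired. The vitellogenin share did go with the number, at 7.55%, 4.945% and 2.505% in MBZ replicates 1, 2 and 3 and 7.82%, 5.77% and 3.39% in DMSO replicates 1, 2 and 3. In ABZ replicates 1, 2 and 3 it was 7.49%, 3.39% and 3.21%. Sperm genes held 0.566% of counts in DMSO replicate 2 and 0.550% in ABZ replicate 2, but 0.115% in MBZ replicate 2. Whether the numbers mark shared cultures was not tested. With the replicate block in all libraries 215 genes rose and 36 fell, and with the replicate block in the 6 libraries alone 16 rose and 0 fell in edgeR.

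Genes that differed between MBZ and ABZ numbered 662 by DESeq2, 121 at 2-fold, 83 at an adjusted p of 0.01 and 135 to 815 without each library. For FBZ they numbered 2034 at 2-fold, 1622 at 0.01 and 2331 to 4332 without each library. For OxBZ the counts were 1918 and 3774, and for TBZ 504, 465 and 666 to 2164. Some uncalled values changed sign when a library was left out. The ranges were -0.29 to 1.20 for tba-8, -0.11 to 0.0022 for tba-1, -0.10 to 0.017 for tbg-1 and -0.17 to 0.030 for tba-9, and -1.93 to 0.587 and -0.00367 to 0.00618 percentage points for the shares of vitellogenins and early embryonic genes.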

Other observations

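Of the genes that rose, 123 of 218 lay in none of the lists, as did 24 of the 41 that fell. Examples, chosen after their values were seen, were apy-1, an apyrase gene (mean 275 CPM under MBZ; 1.88), swt-7, a sugar transporter gene (88.96 CPM; 1.97), and C29F7.2, which had a mean of 275 CPM under MBZ and stood in a run with C29F7.1 and C29F7.3 on chromosome X. The falls outside the lists included cox-4 (-0.32) and cox-7C (-0.32), genes of cytochrome c oxidase, ucr-2.2 (-0.39), a gene of complex III, and gpx-2 (-0.35), a glutathione peroxidase gene. Each of these 4 calls was lost without MBZ replicate 2 or DMSO replicate 3, and all but cox-7C also without DMSO replicate 2 or MBZ replicate 3.

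The propionate breakdown genes, picked after acdh-1 had been seen to fall, all lay below DMSO on average. alh-8 had 1003, 765 and 1042 CPM in MBZ libraries, against 1294, 1387 and 1468 CPM in DMSO libraries (-0.56 ± 0.12; adjusted p = 0.0300, edgeR). ech-6 (-0.55), hach-1 (-0.55) and hphd-1 (-0.46) were not called. In the methionine cycle and phosphocholine synthesis pmt-2, a phosphoethanolamine methyltransferase gene, fell (-0.59 ± 0.13; adjusted p = 0.0425, edgeR), though not without replicate 2 or 3 of either group. The other genes picked there were not called, namely ahcy-1 (-0.54; adjusted p = 0.0737, edgeR), mel-32 (-0.48), sams-1 (-0.11), mtrr-1 (-0.11), mthf-1 (0.03), pmt-1 (0.13) and metr-1 (0.24).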
